A study of Oncorhynchus mykiss with 9 samples.

Results

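The comparison described here set splenic IgM+ B cells of rainbow trout cultured with TNP-LPS directly against the same kind of cells cultured with TNP-KLH. TNP is the hapten 2,4,6-trinitrophenyl, and it was carried in one case by LPS, a component of the bacterial cell wall, and in the other by KLH (keyhole limpet hemocyanin), a large protein of a mollusc. The members were the 3 TNP-LPS and 3 TNP-KLH libraries, 6 of the 9 RNA-seq libraries of the series, and every gene with at least 5 reads in at least 1 of the 9 was tested, 31691 of the 46585 genes in the table. The remaining 3 libraries were control cells kept in culture without antigen, and they entered the model only to estimate the spread between libraries. Female trout of 50 to 70 g gave the spleens, leukocytes were cultured for 24 h, and IgM+ B cells were then sorted by flow cytometry, so that the B cells met the antigen among the other leukocytes of the spleen. The fish carried no transgene or mutation, and whether libraries 1, 2 and 3 of a group came from different fish is not given in the sources used.

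A B cell can be driven through its antigen receptor, whose CD79 chains activate kinases, the adapter BLNK and, further on, the BCL10 and MALT1 proteins that release NF-kB. In mammals a protein such as KLH needs help from T cells to yield antibody (a thymus-dependent antigen), whereas LPS also acts as a mitogen through pattern recognition receptors (a thymus-independent antigen of type 1). An activated B cell grows before it divides, which calls for ribosomes, mitochondria and nucleotides, and it changes the receptors by which it moves and adheres.

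Library totals ran from 8367432 to 11278701 counts with TNP-KLH and from 8080787 to 11081476 with TNP-LPS. Levels are CPM, the counts of a gene relative to the scaled library total, and 3 values in a row are always libraries 1, 2 and 3. Calls were made with the quasi-likelihood test of edgeR at a Benjamini-Hochberg adjusted p under 0.05. Fold changes are log2 values of TNP-LPS over TNP-KLH ± their standard error (SE). Libraries with the same number deviated together across the groups, so a second fit took the number as a block. That fit is called the paired fit here, and its value stands beside a result where it alters the call. Hemoglobin genes, which mark erythrocytes, took 0.0289, 0.272 and 0.00496% of the TNP-KLH counts and 0.0235, 0.0442 and 0.00343% of the TNP-LPS counts. Many trout genes exist in near-identical copies, whose reads these counts cannot separate with certainty. Levels are relative to all RNA of the sorted cells, so a change in some cells and a change in every cell cannot be told apart.

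Without pairing, 673 genes (2.12% of those tested) were higher with TNP-LPS and 236 (0.745%) were lower, 909 in all (2.87%). The paired fit called 2692 genes higher (8.49%) and 1883 lower (5.94%), 4575 in all (14.4%), and these held all 909 genes called without pairing, each in the same direction. Every TNP-LPS library stood above every TNP-KLH library in 4440 genes (14%) and below in 2966 (9.36%), and the 909 were among these. Large differences were more frequent among the lower calls. Among the unpaired calls, 10 of the 673 higher genes but 73 of the 236 lower genes differed at least 4-fold, and 1 against 22 differed at least 8-fold. Among the paired calls the counts past 4-fold were 47 higher and 217 lower. The median size of an unpaired call was 1.14 on the log2 scale for higher and 1.64 for lower genes, and that of a paired call was 0.91 and 1.10. In CPM, which are not corrected for gene length, the median level in the group with more was 92.5 for the higher and 18.8 for the lower unpaired calls, and 50.6 and 20.6 for the paired calls. The median fold change over all genes tested was −0.03.

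**Figure D1:**
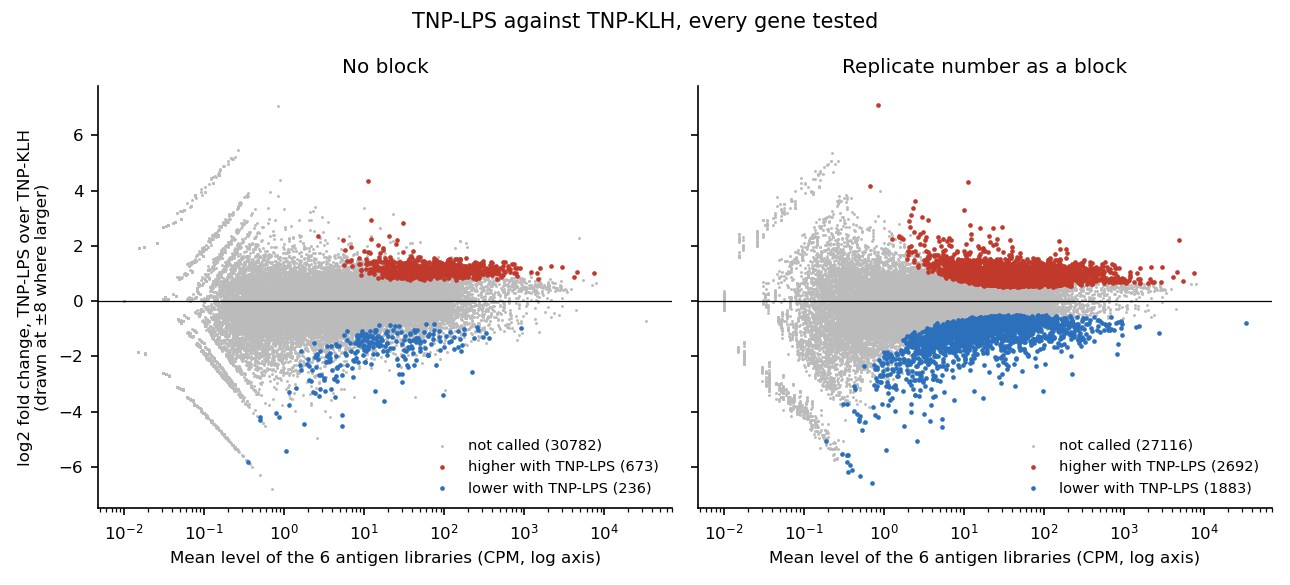
Each point is 1 of the 31691 genes, by its mean level in the 6 antigen libraries (CPM, log axis) and its log2 fold change of TNP-LPS over TNP-KLH, without pairing (left) and with the replicate number as a block (right). The 673 genes called higher without pairing form a flat band that extends to the most abundant genes, whereas the 236 called lower reach further from 0 and lie at lower levels.

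Some genes that were higher with TNP-LPS stood at similar levels in control and TNP-KLH cells. A gene for MOB kinase activator 2 (GSONMG00067333001), a regulator of NDR kinases, had 12.7, 11.1 and 5.45 CPM with TNP-KLH and 35.7, 62.1 and 25.1 with TNP-LPS, and the controls had 9.91, 12.8 and 6.46. Its log2 fold change was 2.07 ± 0.42 with an adjusted p of 0.0355, and the lowest TNP-LPS library stood above the highest of the other 6. The copies GSONMG00008674001 and GSONMG00003739001 were called in neither fit. They changed by −0.05 ± 0.29 and −1.15 ± 1.02 (adjusted p of 0.976 and 0.71). Cryptochrome-1 (GSONMG00068349001), a repressor of the circadian clock, had 7.85, 7.46 and 6.21 CPM with TNP-KLH and 28.1, 32.3 and 21.2 with TNP-LPS, against 9.001, 7.11 and 4.98 CPM for the controls (log2 fold change 1.92 ± 0.27, adjusted p = 0.0235). The less abundant genes of that description GSONMG00002976001 and GSONMG00016210001 were called in neither fit. They changed by −1.945 ± 0.80 and −0.128 ± 1.303 (adjusted p of 0.275 and 0.99).

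A pair of genes for mastermind-like 2, a coactivator of Notch in mammals, showed larger differences that passed the test in the paired fit alone. The gene GSONMG00060387001 had 1.64, 5.64 and 5.995 CPM with TNP-KLH and 10.7, 41.8 and 29.6 with TNP-LPS. Its library 1 was the lowest of each antigen group, and the paired log2 fold change was 2.66 ± 0.29 (adjusted p = 6.27e-05, against 0.109 without pairing). Its copy GSONMG00020328001 had 1.20, 2.002 and 2.07 CPM with TNP-KLH and 7.14, 28.8 and 18.6 with TNP-LPS, and its adjusted p was 5.03e-04 paired and 0.0832 unpaired. The level of TBC1D9 (GSONMG00006990001), a putative activator of Rab GTPases, was 20.2, 15.7 and 7.30 CPM with TNP-KLH and 68.8, 66.5 and 49.02 with TNP-LPS (paired log2 fold change 2.22 ± 0.24, adjusted p 6.27e-05 paired and 0.0572 unpaired). A gene for a MAPK-regulated corepressor-interacting protein (GSONMG00031610001) rose from 15.1, 11.3 and 15.3 to 46.1, 43.2 and 51.7 CPM (log2 fold change 1.76 ± 0.21, adjusted p = 0.0157).

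The lower genes named by size or certainty included regulators of the cell cortex. A serine/threonine kinase 10 gene (GSONMG00053933001), whose mammalian form phosphorylates the ERM proteins that tie actin to the membrane, had 22.9, 55.9 and 18.5 CPM with TNP-KLH but 2.79, 2.64 and 2.41 with TNP-LPS. Control cells had 30.9, 33.96 and 22.5 CPM, so that the TNP-KLH libraries spanned the control level while every TNP-LPS library lay far below both. The log2 fold change was −3.63 ± 0.43 (adjusted p = 0.0157). Another gene of that description, GSONMG00013873001, was called in neither fit. It had 25.5, 24.9 and 38.7 CPM with TNP-KLH and 23.45, 30.6 and 29.2 with TNP-LPS (log2 fold change −0.10 ± 0.24, adjusted p = 0.926). NHS-like protein 2 (GSONMG00045327001), a relative of a regulator of actin at the cell edge, was abundant in control cells (489, 785 and 321 CPM). It stood at 138, 272 and 126 CPM with TNP-KLH and at 19.4, 15.1 and 16.7 CPM with TNP-LPS (log2 fold change −3.39 ± 0.41, adjusted p = 0.0157).

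The smallest adjusted p of the genes named here without pairing, 0.0108, belonged to ENPP4 (GSONMG00076623001), an ectoenzyme that cleaves dinucleotides. Its libraries were close together, at 126, 131 and 138 CPM with TNP-KLH and 22.4, 29.3 and 26.7 with TNP-LPS, and the log2 fold change was −2.33 ± 0.19. Control libraries had 233, 235 and 257 CPM, which placed TNP-KLH between the other groups with no overlap. An AHNAK-like gene (GSONMG00031809001), for a large scaffold protein under the plasma membrane, had 40.4, 15.7 and 17.2 CPM with TNP-KLH and 5.43, 0.845 and 1.76 with TNP-LPS (log2 fold change −3.24 ± 0.61, adjusted p = 0.0291). The hematopoietic SH2 domain adapter HSH2D (GSONMG00031160001), which restrains apoptosis in mouse B cells, had 63.4, 54.5 and 40.4 CPM with TNP-KLH and 16.5, 9.61 and 11.1 with TNP-LPS (log2 fold change −2.09 ± 0.27, adjusted p = 0.0203). Its copy GSONMG00031161001 changed by −2.13 ± 0.36 (adjusted p = 0.0250).

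Toll-like receptors, which detect microbial lipids, flagellin and nucleic acids, were lower in TNP-LPS cells for 10 of the 11 members called in the paired fit. Of 21 genes tested, 4 were lower without pairing and 10 in the paired fit (47.6%, against 5.94% of all genes), while 0 and 1 were higher. The median log2 fold change of the 21 was −0.95 without pairing, and 7 of the 21 were above 0. The Toll-like receptor 2 gene GSONMG00020614001, which in mammals senses bacterial lipoproteins, had 15.9, 8.74 and 13.3 CPM with TNP-KLH and 2.17, 1.16 and 2.23 with TNP-LPS. All 3 TNP-LPS libraries lay below all TNP-KLH libraries, which in turn lay below the control libraries (43.5, 17.4 and 27.9 CPM). The log2 fold change was −2.77 ± 0.42 (adjusted p = 0.0235), and within the same-numbered libraries it was −2.76, −2.71 and −2.47. Its copy GSONMG00005983001 had 5.45, 1.46 and 5.67 CPM with TNP-KLH and 0.466, 0.317 and 0.464 with TNP-LPS (log2 fold change −3.30 ± 0.59, adjusted p = 0.0276).

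The Toll-like receptor 12 gene (GSONMG00041203001) stood at 65.9, 36.9 and 39.1 CPM with TNP-KLH and at 13.8, 2.96 and 6.13 CPM with TNP-LPS (log2 fold change −2.65 ± 0.51, adjusted p = 0.0300). A Toll-like receptor 13 gene (GSONMG00041579001), of a type that senses bacterial ribosomal RNA in mice, had 88.99, 77.3 and 134 CPM with TNP-KLH and 18.2, 19.4 and 40.5 with TNP-LPS (log2 fold change −1.94 ± 0.37, adjusted p = 0.0300). Library 3 was the highest in each group. A further copy (GSONMG00021584001) changed by −2.03 ± 0.26 in the paired fit (adjusted p = 1.53e-04, 0.0559 unpaired).

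The other 6 Toll-like receptors called in the paired fit lie outside the naming rule and were singled out after their values were seen. Toll-like receptor 6 (GSONMG00042809001) had 51.9, 70.4 and 73.7 CPM with TNP-KLH and 31.2, 36.4 and 38.5 with TNP-LPS (paired log2 fold change −0.88 ± 0.16, adjusted p 0.00164 paired and 0.0616 unpaired). Toll-like receptor 7 (GSONMG00027559001), a sensor of single-stranded RNA, had 137, 55.5 and 40.8 CPM with TNP-KLH and 65.8, 22.6 and 14.6 with TNP-LPS. Its groups overlapped, yet each TNP-LPS library was below the TNP-KLH library of its number, and the adjusted p was 0.00115 paired and 0.594 unpaired. A further Toll-like receptor 13 gene (GSONMG00054145001) changed by −1.59 ± 0.25 (adjusted p 5.64e-04 paired and 0.0572 unpaired). The exception was the gene GSONMG00037155001, described as a Toll-like receptor 13, with 6.65, 7.64 and 1.53 CPM with TNP-KLH and 6.06, 38.1 and 4.27 with TNP-LPS. Its paired adjusted p was 0.0301 (0.432 unpaired), and the call was lost without library 2 or 3 of either antigen (adjusted p of 0.065 to 0.412) and without number 2 or number 3 (0.416 and 0.121). Toll-like receptor 8 (GSONMG00067760001) changed by −1.01 ± 0.23 (adjusted p 0.00668 paired and 0.0738 unpaired), a call lost without TNP-KLH library 1 or 2 (0.0554 and 0.0594) or number 1 (0.131). Toll-like receptor 9 (GSONMG00026650001), a sensor of DNA, changed by −0.99 ± 0.29 (adjusted p 0.0275 paired and 0.195 unpaired). That call was lost without any TNP-KLH library, TNP-LPS library 2 or 3, or number 3 (adjusted p of 0.0507 to 0.264).

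NOD-like receptors, which sense microbial and stress signals inside the cell, are a large family in fish, and 124 genes were tested. Of these, 7 were lower and 0 higher without pairing, and 40 were lower and 0 higher in the paired fit (32.3% lower, against 5.94% of all genes), with a median log2 fold change of −0.53. An NLRP3-like gene (GSONMG00036772001) had 35.7, 29.3 and 39.6 CPM with TNP-KLH, near the 39.4, 32.9 and 47.3 of control cells, and 11.2, 9.29 and 11.7 with TNP-LPS (log2 fold change −1.70 ± 0.22, adjusted p = 0.0176). An NLRP12-like gene (GSONMG00016741001) was as even within groups, with 24.2, 22.3 and 25.9 CPM against 7.92, 7.92 and 8.36 CPM (log2 fold change −1.58 ± 0.18, adjusted p = 0.0157). The libraries of both antigens together spanned 1900 to 3250 CPM for the summed level of the list, from 2870 to 3250 with TNP-KLH and from 1900 to 2230 with TNP-LPS.

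Several genes of B cell receptor signalling were lower with TNP-LPS. Of 88 genes tested, 8 were lower and 0 higher without pairing, and 29 were lower (33%, against 5.94% of all genes) and 1 higher in the paired fit, with a median log2 fold change of −0.61. A CD79A gene (GSONMG00053375001), the signalling chain of the receptor, had 236, 423 and 346 CPM with TNP-KLH and 119, 131 and 151 with TNP-LPS (log2 fold change −1.32 ± 0.25, adjusted p = 0.0300). The adapter BLNK (GSONMG00016155001) had 97.9, 122 and 77.1 CPM with TNP-KLH and 34.3, 16.5 and 25.99 with TNP-LPS (log2 fold change −1.95 ± 0.37, adjusted p = 0.0289). In both genes the antigen groups did not overlap, and library 2 was the highest with TNP-KLH.

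Further along the pathway, PIK3AP1 couples the receptor to phosphoinositide 3-kinase, and its copy GSONMG00078101001 had 21.7, 21.1 and 23.6 CPM with TNP-KLH and 7.92, 6.97 and 9.01 with TNP-LPS (log2 fold change −1.47 ± 0.18, adjusted p = 0.0157). A second copy, GSONMG00064460001, had 183, 206 and 219 CPM and 101, 84.6 and 103 CPM (log2 fold change −1.08 ± 0.19, adjusted p = 0.0263), so the copies moved the same way. RASGRP2 activates the adhesion GTPase Rap1, and its most abundant copy named here (GSONMG00012774001) had 96.3, 112 and 105 CPM with TNP-KLH and 44.6, 31.3 and 44.2 with TNP-LPS (log2 fold change −1.39 ± 0.21, adjusted p = 0.0235). Its copies GSONMG00020218001 and GSONMG00001113001 were called in neither fit. They changed by −0.51 ± 0.39 and −0.07 ± 0.54 (adjusted p of 0.639 and 0.983).

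BCL10 and MALT1, which link the receptor to NF-kB, were lower with TNP-LPS in the paired fit for the copies named here. A BCL10 gene (GSONMG00047309001) had 27.1, 37.04 and 39.6 CPM with TNP-KLH and 17.9, 15 and 22.2 with TNP-LPS, with an adjusted p of 0.00314 paired and 0.0646 unpaired. A MALT1 gene (GSONMG00071655001) had 75.9, 75.5 and 67.04 CPM with TNP-KLH and 29.7, 22.4 and 46.5 with TNP-LPS, with an adjusted p of 0.00321 paired and 0.0609 unpaired.

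The NF-kB list of 51 genes, to which these belong, held 12 lower genes (23.5%, against 5.94% of all genes) and 1 higher (1.96%, against 8.49%) in the paired fit. The gene that was higher, named after its value was seen, encodes the NF-kB p105 subunit (GSONMG00024578001), a precursor of p50. It had 129, 155 and 223 CPM with TNP-KLH and 196, 408 and 393 with TNP-LPS, with an adjusted p of 0.00456 paired and 0.242 unpaired. The paired call was lost without TNP-KLH library 2 (0.0549) or 3 (0.0562).

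**Figure D2:**
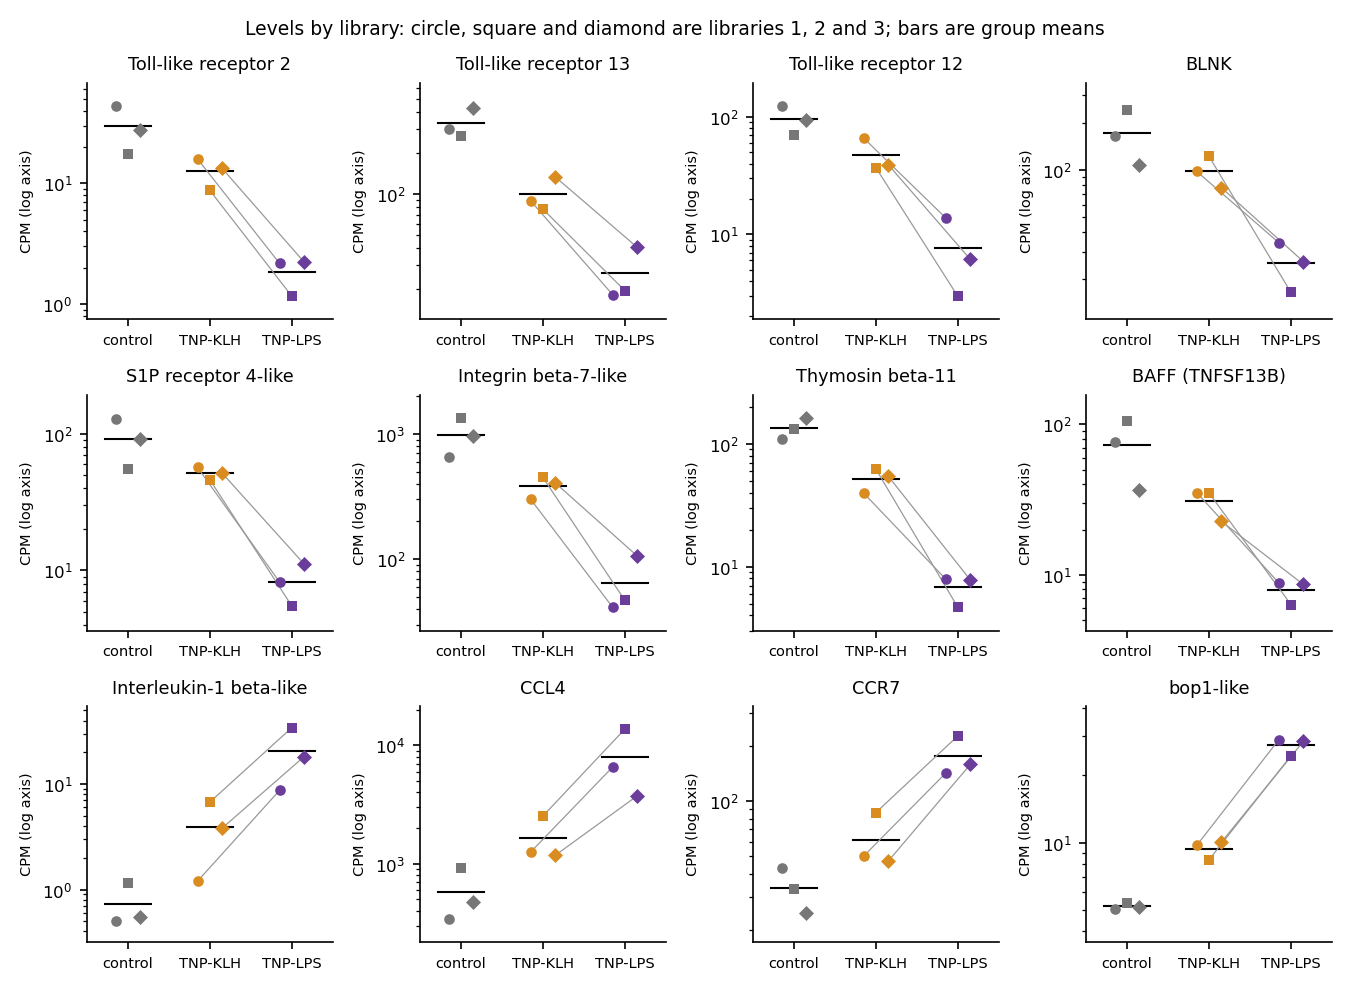
Each panel shows the level of 1 gene (CPM, log axis) in the 9 libraries, with circles, squares and diamonds for libraries 1, 2 and 3, black bars for the group means and grey lines between same-numbered antigen libraries. In the upper 8 panels each TNP-LPS library lies below all TNP-KLH libraries, and in the lower 4 panels each lies above them. The way the genes were chosen largely fixed this separation.

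Several inflammatory cytokines and chemokines were higher with TNP-LPS in the paired fit, and those named here were not called without pairing. CCL4 (GSONMG00080018001), a chemokine for myeloid cells and T cells, had 1252, 2523 and 1175 CPM with TNP-KLH and 6542, 13700 and 3738 with TNP-LPS, against 339, 914 and 476 CPM for the controls. Library 2 was the highest of each group, the antigen groups did not overlap, and the adjusted p was 0.0579 without pairing and 7.29e-05 in the paired fit (paired log2 fold change 2.19 ± 0.25). An interleukin-1 beta gene (GSONMG00003908001), a cytokine of acute inflammation, had 1.20, 6.74 and 3.81 CPM with TNP-KLH and 8.70, 34.2 and 18.2 with TNP-LPS. The differences within numbers were 2.67, 2.31 and 2.19 on the log2 scale, and the adjusted p was 0.0823 unpaired and 6.27e-05 paired. Other interleukin-1 beta genes parted. GSONMG00037660001 was higher in the paired fit (log2 fold change 1.26 ± 0.25, adjusted p 0.00292 paired and 0.255 unpaired). GSONMG00005489001 and GSONMG00016453001 were called in neither fit. Their paired log2 fold changes were −0.74 ± 0.60 and 0.84 ± 0.91 (adjusted p of 0.52 and 0.66).

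A tumor necrosis factor gene (GSONMG00010221001) had 32.2, 54.6 and 27.4 CPM with TNP-KLH and 52.5, 172 and 94.1 with TNP-LPS, and its groups overlapped. In the paired fit its log2 fold change was 1.41 ± 0.21 (adjusted p = 3.88e-04, 0.122 unpaired). Of 5 genes for the chemokine CXCL11, which attracts activated T cells in mammals, 1 was called. This gene (GSONMG00058131001) differed more between numbers than between antigens, with 167, 50.5 and 24.3 CPM for TNP-KLH and 716, 142 and 70.5 CPM for TNP-LPS. The within-number differences were 2.10, 1.49 and 1.53, all upward, and the adjusted p was 6.43e-05 paired but 0.429 unpaired. The other 4 genes had at most 19.6 CPM in any antigen library and paired adjusted p of 0.648 to 0.962. Interleukin-34 (GSONMG00026942001), a ligand of the macrophage colony-stimulating factor receptor and named after its value was seen, had 6.43, 17.4 and 12.3 CPM with TNP-KLH and 19.2, 38.8 and 26.6 with TNP-LPS (paired log2 fold change 1.28 ± 0.21, adjusted p 7.66e-04 paired and 0.272 unpaired).

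The chemokine list as a whole did not move one way. Of its 50 genes, 2 were higher and 1 lower without pairing. In the paired fit 6 were higher (12%, against 8.49% of all genes) and 2 lower (4%, against 5.94%). The higher genes included CCR7, which guides lymphocytes to lymphoid tissue in mammals, with 50.2, 86.5 and 47.1 CPM with TNP-KLH and 142, 226 and 158 with TNP-LPS for GSONMG00017247001 (log2 fold change 1.51 ± 0.32, adjusted p = 0.0396). The copy GSONMG00049598001 changed by 1.49 ± 0.30 (adjusted p = 0.0336). CCR4 (GSONMG00030070001), another homing receptor, was lower, with 2.62, 6.10 and 3.92 CPM with TNP-KLH and 0.466, 1.06 and 0.836 with TNP-LPS (log2 fold change −2.38 ± 0.46, adjusted p = 0.0313).

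Among the 12 TNF ligands the genes also parted, with 2 lower and 0 higher without pairing and 2 in each direction in the paired fit. The paired shares were 16.7% in each direction, against 8.49% higher and 5.94% lower of all genes. BAFF (TNFSF13B, GSONMG00026860001), the survival factor of B cells, had 35.2, 34.95 and 22.7 CPM with TNP-KLH and 8.85, 6.34 and 8.63 with TNP-LPS (log2 fold change −1.96 ± 0.37, adjusted p = 0.0298). TWEAK (TNFSF12, GSONMG00066797001) had 3.93, 3.003 and 4.36 CPM with TNP-KLH and 1.09, 0.211 and 0.743 with TNP-LPS (log2 fold change −2.50 ± 0.47, adjusted p = 0.0289). CD40 (TNFRSF5, GSONMG00035714001), the receptor through which T cells help B cells and a gene named after its value was seen, had 73.3, 30.1 and 34.2 CPM with TNP-KLH and 34.8, 15.4 and 14.6 with TNP-LPS. Its groups overlapped, and it was lower in the paired fit alone (log2 fold change −1.09 ± 0.17, adjusted p 5.03e-04 paired and 0.326 unpaired).

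Cytokine receptors and their signal transducers held 0 calls without pairing. Of 88 interleukin and receptor genes, 5 were higher (5.68%, against 8.49% of all genes) and 10 lower (11.4%, against 5.94%) in the paired fit. Of 62 JAK, STAT and SOCS genes, 6 were higher (9.68%) and 7 lower (11.3%) in that fit. A STAT5B gene (GSONMG00014300001), a transducer of cytokine signals, had 4.36, 11.4 and 3.71 CPM with TNP-KLH and 10.6, 24.9 and 14.4 with TNP-LPS (paired log2 fold change 1.42 ± 0.26, adjusted p 0.00139 paired and 0.175 unpaired). Its copies GSONMG00003096001 and GSONMG00022054001 were also higher in the paired fit (adjusted p of 0.0285 and 0.00629). The copies GSONMG00004166001 and GSONMG00004167001 were called in neither fit. Their paired log2 fold changes were −0.12 ± 0.24 and 0.26 ± 0.30 (adjusted p of 0.835 and 0.696). A pair of interleukin-21 receptor genes, named after their values were seen, was higher in the paired fit. The gene GSONMG00034639001 had 110.3, 56.6 and 39.02 CPM with TNP-KLH and 206, 162 and 77.9 with TNP-LPS (adjusted p 6.36e-04 paired, 0.367 unpaired), and the paired log2 fold change of GSONMG00004927001 was 1.31 ± 0.24 (adjusted p 0.00132 paired, 0.641 unpaired).

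Some genes of adhesion and movement were lower with TNP-LPS, although most members of these lists were not called. Of 214 integrin and matrix genes, 6 were lower and 0 higher without pairing and 30 lower (14%, against 5.94% of all genes) and 3 higher in the paired fit, with a median log2 fold change of −0.62. Integrin beta-7 (GSONMG00056855001), which pairs with alpha-4 or alpha-E to bind cells to gut endothelium and epithelium in mammals, had 301, 449 and 406 CPM with TNP-KLH and 41.5, 47 and 106 with TNP-LPS, from 649.9, 1330 and 969 in control cells. The log2 fold change was −2.57 ± 0.41 (adjusted p = 0.0250), and library 3 was the highest with TNP-LPS. Its possible partner integrin alpha-E (GSONMG00005339001) had 70.3, 94.2 and 66.8 CPM with TNP-KLH and 26.2, 22.5 and 21.6 with TNP-LPS (log2 fold change −1.72 ± 0.24, adjusted p = 0.0235). In contrast to beta-7, the TNP-KLH libraries of alpha-E overlapped the control libraries (89.9, 107 and 68.5 CPM).

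Integrin beta-2 (GSONMG00075139001), the common chain of the leukocyte integrins, had 463, 556 and 524 CPM with TNP-KLH and 182, 182 and 244 with TNP-LPS (log2 fold change −1.35 ± 0.21, adjusted p = 0.0249). The sphingosine 1-phosphate receptor 4 gene (GSONMG00075704001), of the receptor family that governs exit from lymphoid tissue, had 56.6, 46.05 and 51.5 CPM with TNP-KLH and 8.23, 5.49 and 11.1 with TNP-LPS. It changed by −2.63 ± 0.35 (adjusted p = 0.0235), and the differences within numbers were −2.75, −3.02 and −2.19.

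The actin and cell cortex list of 228 genes had 19 lower and 3 higher genes without pairing and 50 lower (21.9%) and 11 higher in the paired fit. Thymosin beta-11 (GSONMG00072989001), a small protein of the family that holds actin monomers, had 39.7, 62.1 and 54.5 CPM with TNP-KLH and 7.92, 4.65 and 7.80 with TNP-LPS, where control cells had 110.1, 132 and 162. Its log2 fold change of −2.94 ± 0.30 (adjusted p = 0.0157) was the largest of the genes named from this list. Gamma-adducin (GSONMG00058025001), which caps actin filaments at the membrane skeleton, had 231, 256 and 272 CPM with TNP-KLH and 60.7, 66.4 and 89.9 with TNP-LPS (log2 fold change −1.81 ± 0.21, adjusted p = 0.0157). Ankyrin-3 (GSONMG00059906001), which anchors membrane proteins to spectrin, had 221, 281 and 240 CPM and 63.97, 91.8 and 90.1 CPM (log2 fold change −1.59 ± 0.22, adjusted p = 0.0235). Filamin-A (GSONMG00011316001), which cross-links actin, had 21.6, 21.1 and 18.6 CPM and 6.83, 7.50 and 10.3 CPM (log2 fold change −1.31 ± 0.20, adjusted p = 0.0250).

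Regulators of small GTPases, which switch the cytoskeleton and adhesion on and off, formed the longest list, with 406 genes. Without pairing 20 were lower and 0 higher, and in the paired fit 66 were lower (16.3%) and 8 higher. The exchange factor Trio (GSONMG00030071001) had 11.8, 13.3 and 11.2 CPM with TNP-KLH and 2.02, 3.27 and 2.60 with TNP-LPS (log2 fold change −2.19 ± 0.26, adjusted p = 0.0157). Its less abundant copies GSONMG00004705001 and GSONMG00004261001 were called in neither fit. They changed by −1.03 ± 0.52 and 0.19 ± 0.99 (adjusted p of 0.402 and 0.974). The GTPase-activating protein ARHGAP27 (GSONMG00011953001) had 55.1, 36.6 and 55.05 CPM and 16.6, 11.3 and 14.8 CPM (log2 fold change −1.78 ± 0.25, adjusted p = 0.0235). Both activators and inactivators of GTPases were thus among the lower genes. A DOCK10 gene (GSONMG00055208001), for an exchange factor for Cdc42 and Rac, had 3.27, 4.92 and 5.12 CPM with TNP-KLH and 0.621, 0.634 and 0.0928 with TNP-LPS (log2 fold change −3.34 ± 0.54, adjusted p = 0.0250). More abundant genes of that description did not fall and were called in neither fit. GSONMG00015620001 had 134, 153 and 235 CPM with TNP-KLH and 107, 239 and 244 with TNP-LPS (log2 fold change 0.18 ± 0.40, adjusted p = 0.915). GSONMG00015619001 changed by 0.35 ± 0.38 (adjusted p = 0.780).

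**Figure D3:**
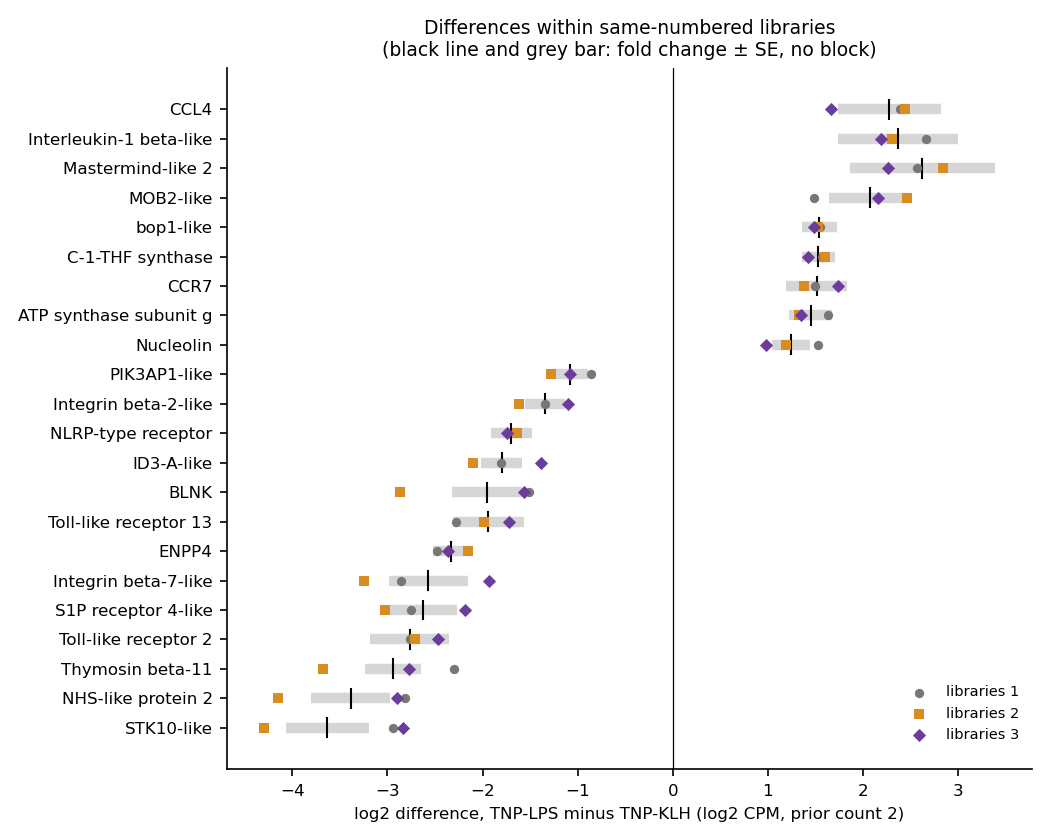
Points are the log2 differences of TNP-LPS minus TNP-KLH within libraries 1, 2 and 3 for 22 named genes, black lines the fold change without pairing and grey bars 1 SE to each side. All 3 points of every gene lie on the same side of 0, which the way the genes were chosen largely fixed.

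Some transcription factors of the B lineage and of early activation were lower with TNP-LPS, nearly all in the paired fit alone, while most were not called. Of 100 B and plasma cell factors, 1 was lower and 0 higher without pairing and 23 lower (23%, against 5.94% of all genes) and 2 higher in the paired fit. ID3 (GSONMG00015698001), an inhibitor of E proteins, had 29.8, 35.6 and 24.3 CPM with TNP-KLH and 8.38, 8.13 and 9.19 with TNP-LPS, from 81.7, 73.8 and 59.7 in control cells (log2 fold change −1.80 ± 0.22, adjusted p = 0.0157). Its copy GSONMG00060835001 changed by −1.32 ± 0.20 in the paired fit (adjusted p = 4.61e-04, 0.0740 unpaired). ETS1 (GSONMG00033861001), which restrains plasma cell formation in mice, had 71.5, 25.9 and 68.9 CPM with TNP-KLH and 23.8, 5.49 and 19.2 with TNP-LPS. Library 2 was the lowest of each antigen group, and the adjusted p was 2.83e-04 paired and 0.114 unpaired.

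IRF8, a factor of B cell and myeloid development, was lower in the paired fit in 3 of the 5 genes tested, and in these TNP-KLH cells had the highest group mean. The copy GSONMG00053614001 had 149, 136 and 92.2 CPM with TNP-KLH and 55.9, 25.6 and 28.1 with TNP-LPS, where control cells had 124, 117 and 25.98. The copy GSONMG00056441001 had 489, 718 and 260.4 CPM with TNP-KLH and 201, 208 and 102 with TNP-LPS, where control cells had 313, 520.3 and 151. In each number, TNP-KLH exceeded both other libraries for both copies, and library 3 was the lowest of every group for the second copy. The paired log2 fold changes were −1.81 ± 0.31 and −1.47 ± 0.19, with adjusted p of 8.96e-04 and 2.01e-04, against 0.122 and 0.158 without pairing.

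The 86 immediate early factors and MAP kinase phosphatases had 0 calls without pairing, with 24 lower (27.9%) and 2 higher genes in the paired fit. EGR1 (GSONMG00063854001), induced within minutes of receptor ligation in mammals, had 256, 408 and 273 CPM with TNP-KLH and 70.96, 195 and 140.4 with TNP-LPS (paired log2 fold change −1.25 ± 0.23, adjusted p 0.00186 paired and 0.123 unpaired). NR4A1 (GSONMG00073863001), whose expression reports antigen receptor signalling in mammals, had 252, 233 and 382 CPM and 58.9, 82.2 and 149 CPM (paired log2 fold change −1.66 ± 0.20, adjusted p 1.03e-04 paired and 0.0991 unpaired). JunD (GSONMG00048914001), an AP-1 subunit, differed several-fold between numbers, with 406, 1623 and 1859 CPM with TNP-KLH and 158, 713 and 851 with TNP-LPS. Each TNP-LPS library was nevertheless below its TNP-KLH partner (paired log2 fold change −1.22 ± 0.20, adjusted p 7.50e-04 paired and 0.509 unpaired).

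Genes of ribosome assembly had the highest median of the 34 lists. Of 160 genes of ribosome biogenesis and the nucleolus, 71 were higher and 0 lower without pairing, and 126 were higher and 1 lower in the paired fit, with a median log2 fold change of 1.05. The bop1 gene GSONMG00021111001, needed to process the large subunit RNA, had 9.71, 8.37 and 10.03 CPM with TNP-KLH and 28.9, 24.5 and 28.4 with TNP-LPS, from 5.06, 5.33 and 5.13 in control cells. Its log2 fold change was 1.54 ± 0.18 (adjusted p = 0.0157), and the 3 groups stood apart. The H/ACA subunit 1 gene (GSONMG00018611001), for a protein of the particles that modify ribosomal RNA, had 58.6, 58.6 and 61.9 CPM with TNP-KLH and 194, 149 and 154 with TNP-LPS (log2 fold change 1.47 ± 0.21, adjusted p = 0.0235). Nucleolin (GSONMG00018656001), an abundant nucleolar protein, had 1714, 1730 and 1905 CPM and 4946, 3944 and 3748 CPM (log2 fold change 1.24 ± 0.20, adjusted p = 0.0250).

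Ribosomal proteins themselves had smaller medians. Of 181 cytosolic ribosomal protein genes, 11 were higher and 0 lower without pairing, and 58 were higher and 0 lower in the paired fit, with a median of 0.57. Their summed level was 132000 to 182000 CPM with TNP-KLH and 189000 to 283000 CPM with TNP-LPS, and 174000 to 194000 CPM in control cells. Mitochondrial ribosomal proteins were closer to ribosome assembly, with 24 of 108 higher and 0 lower without pairing, 74 higher and 0 lower in the paired fit and a median of 0.99. An example was the L2 subunit (GSONMG00042268001), with 16.5, 19.9 and 16.9 CPM with TNP-KLH and 48.6, 46.3 and 37.04 with TNP-LPS (log2 fold change 1.31 ± 0.20, adjusted p = 0.0235).

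Among 77 aminoacyl-tRNA synthetase genes, which charge transfer RNA with amino acids, 14 were higher without pairing and 48 in the paired fit, and 0 were lower in either. The lysine enzyme (GSONMG00071882001) had 147, 146 and 139 CPM with TNP-KLH and 393, 321 and 315 with TNP-LPS (log2 fold change 1.25 ± 0.20, adjusted p = 0.0250). Of 156 translation factors, 31 were higher and 0 lower without pairing, and 81 were higher and 1 lower in the paired fit. The eIF6 gene (GSONMG00012028001), which keeps ribosomal subunits apart, had 103, 123 and 91.2 CPM and 302, 247 and 214 CPM (log2 fold change 1.26 ± 0.22, adjusted p = 0.0253).

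**Figure D4:**
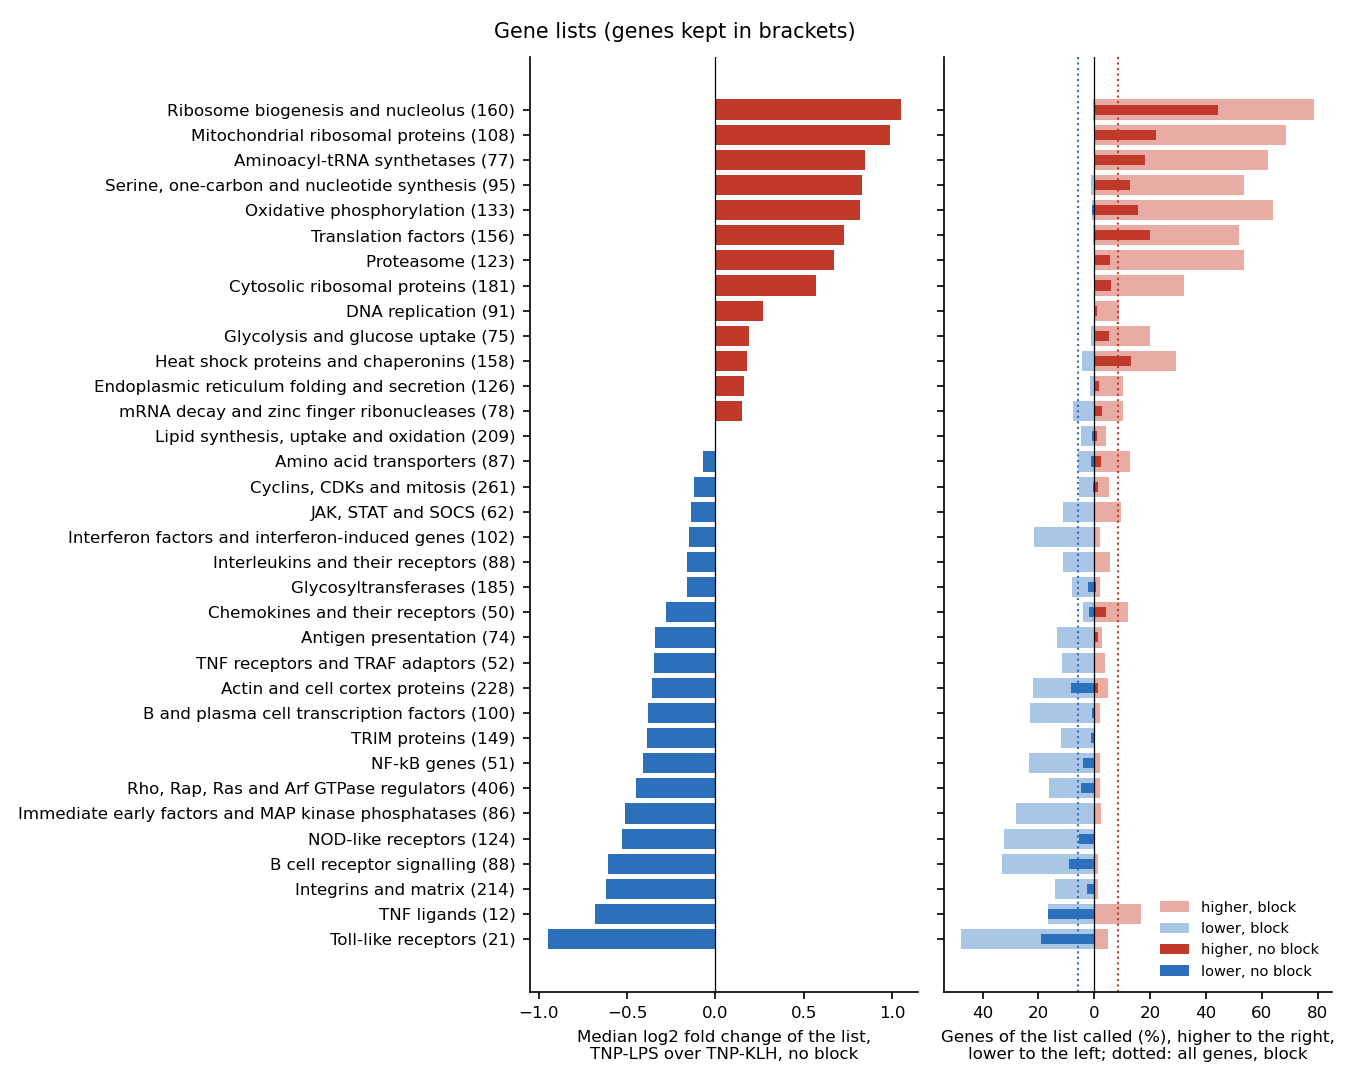
Bars on the left give the median log2 fold change of each of 34 gene lists, and bars on the right the share of their genes called higher (to the right) or lower (to the left) in the paired fit (pale) and without pairing (dark), with dotted lines at the 8.49% and 5.94% of all genes. Ribosome biogenesis (median 1.05) stands at the top and the Toll-like receptors (median −0.95) at the bottom.

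Most genes of mitochondrial respiration were higher with TNP-LPS in the paired fit. Of 133 genes of oxidative phosphorylation, 21 were higher and 1 lower without pairing, and 85 were higher and 1 lower in the paired fit, with a median of 0.82. Subunit g of ATP synthase (GSONMG00078158001) had 28.9, 28.7 and 28.3 CPM with TNP-KLH and 90.1, 72.2 and 72.5 with TNP-LPS (log2 fold change 1.45 ± 0.22, adjusted p = 0.0249). The lower gene was cytochrome c oxidase subunit 8B (GSONMG00012179001), an isoform of heart and skeletal muscle in mammals. It had 6.22, 5.01 and 4.03 CPM with TNP-KLH and 1.09, 0.211 and 0.464 with TNP-LPS, from 10.1, 10.6 and 13.1 in control cells (log2 fold change −3.18 ± 0.47, adjusted p = 0.0235).

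Genes that supply nucleotides were higher with TNP-LPS, most of them in the paired fit alone. Of 95 genes of serine, one-carbon and nucleotide synthesis, 12 were higher and 0 lower without pairing, and 51 were higher (53.7%, against 8.49% of all genes) and 1 lower in the paired fit. C-1-tetrahydrofolate synthase (GSONMG00034931001), which interconverts folate-bound carbon units, had nearly equal values within groups, 56.8, 59.98 and 59.95 CPM with TNP-KLH and 168, 182 and 161 with TNP-LPS, from 33.9, 32.2 and 33.6 in control cells (log2 fold change 1.53 ± 0.17, adjusted p = 0.0157). UMP synthase (GSONMG00071029001), which completes pyrimidine synthesis, had 81.6, 68.1 and 63.7 CPM and 271, 182 and 155 CPM (log2 fold change 1.51 ± 0.24, adjusted p = 0.0250). Fatty acid synthase (GSONMG00062364001) had 55.6, 61.2 and 49.9 CPM and 119, 135 and 152 CPM (log2 fold change 1.28 ± 0.21, adjusted p = 0.0250), although the 209 lipid genes as a list had a median of 0.00, with 9 higher (4.31%, below the 8.49% of all genes) and 10 lower (4.78%) in the paired fit.

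Glycolysis had a smaller median than respiration. Of its 75 genes, 4 were higher and 0 lower without pairing and 15 were higher and 1 lower in the paired fit, and the median was 0.19 (0.02 without the libraries numbered 3). Phosphoglycerate kinase (GSONMG00071424001) had 179.8, 214 and 223 CPM with TNP-KLH and 429, 343 and 436 with TNP-LPS (log2 fold change 0.97 ± 0.19, adjusted p = 0.0323). Genes of DNA replication were near the background, with 1 of 91 higher and 0 lower without pairing and 8 higher (8.79%) and 0 lower in the paired fit. The replicative helicase subunit MCM6 (GSONMG00008031001) had 42.4, 79.5 and 41.1 CPM with TNP-KLH and 109, 137 and 77.2 with TNP-LPS, and its groups overlapped (paired log2 fold change 1.02 ± 0.18, adjusted p 9.77e-04 paired and 0.209 unpaired). Among 261 cyclin, CDK and mitosis genes, 14 were higher and 14 lower in the paired fit. These shares, 5.36% in each direction, were below the 8.49% higher and 5.94% lower of all genes. M-phase inducer phosphatase 2 (GSONMG00000462001), which activates the mitotic kinase, was lower, with 5.13, 6.83 and 8.18 CPM with TNP-KLH and 1.55, 1.48 and 0.557 with TNP-LPS (log2 fold change −2.51 ± 0.40, adjusted p = 0.0250).

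Protein quality control was higher with TNP-LPS in the proteasome and, in part, among chaperones. Of 123 proteasome genes, 7 were higher and 0 lower without pairing and 66 were higher and 0 lower in the paired fit, with a median of 0.67. Proteasome activator subunit 3 (GSONMG00013072001), part of the PA28 gamma ring, had 27.7, 25.4 and 21.9 CPM with TNP-KLH and 82.3, 61.1 and 47.1 with TNP-LPS (log2 fold change 1.34 ± 0.23, adjusted p = 0.0253). Of 158 heat shock and chaperonin genes, 21 were higher and 0 lower without pairing and 46 were higher and 7 lower in the paired fit. TRAP1, the mitochondrial chaperone of 75 kDa (GSONMG00041504001), had 16.03, 15.8 and 14.3 CPM and 39.9, 39.5 and 37.3 CPM (log2 fold change 1.34 ± 0.19, adjusted p = 0.0235). Genes of folding and secretion in the endoplasmic reticulum, which antibody-secreting cells use heavily, were called higher at about the rate of all genes. Of 126, 2 were higher and 0 lower without pairing. In the paired fit 13 were higher (10.3%, against 8.49% of all genes) and 2 lower (1.59%, against 5.94%).

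Of 185 glycosyltransferases, 4 were lower and 1 higher without pairing, and 15 were lower (8.11%, against 5.94% of all genes) and 4 higher (2.16%, against 8.49%) in the paired fit. Within them, an alpha-2,3-sialyltransferase (GSONMG00048288001), which caps cell surface glycans with sialic acid, had 8.40, 4.82 and 9.81 CPM with TNP-KLH and 1.55, 1.37 and 1.49 with TNP-LPS (log2 fold change −2.38 ± 0.34, adjusted p = 0.0235). Another alpha-2,3-sialyltransferase gene, GSONMG00012025001, was called in neither fit. It had 5.34, 6.37 and 6.65 CPM with TNP-KLH and 6.21, 3.06 and 7.61 with TNP-LPS (log2 fold change −0.12 ± 0.36, adjusted p = 0.940). Beta-1,4-galactosyltransferase 1 (GSONMG00066944001) was among the most even genes, with 96.7, 101 and 102 CPM with TNP-KLH and 49.2, 47.6 and 48.6 with TNP-LPS (log2 fold change −1.04 ± 0.17, adjusted p = 0.0250). Interferon factors and interferon-induced genes held 0 calls of 102 without pairing, with 22 lower (21.6%) and 2 higher (1.96%) in the paired fit. Of 149 TRIM genes 2 were lower and 0 higher without pairing, and 18 lower (12.1%) and 0 higher in the paired fit.

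The genome duplication of salmonids left many genes in copies, and genes that share a description were compared in pairs. Of 19281 pairs within groups of 2 to 5 genes of one description, both genes were called in the paired fit in 1262 pairs (6.55%), in the same direction in 1231 and in opposite directions in 31. How far reads were split between near-identical copies of a pair was not tested. Cationic amino acid transporter 3, which imports arginine and lysine, was one of the 31. The copy GSONMG00041068001 had 36.2, 17.02 and 42.4 CPM with TNP-KLH and 10.6, 7.29 and 11.5 with TNP-LPS (log2 fold change −1.70 ± 0.38, adjusted p = 0.0464). The copy GSONMG00069153001 had 17.99, 13.1 and 21.8 CPM with TNP-KLH and 28.1, 30.5 and 38.8 with TNP-LPS (paired log2 fold change 0.89 ± 0.21, adjusted p 0.00754 paired and 0.0847 unpaired). For both copies the antigen groups did not overlap. The second call was lost without TNP-KLH library 2 (adjusted p = 0.0959), TNP-LPS library 3 (0.065) or number 3 (0.0747).

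DDIT4, an inhibitor of the growth kinase mTORC1, and a gene described as DDIT4-like, both named after their values were seen, were called in opposite directions. DDIT4 (GSONMG00032085001) had 8.07, 163 and 49.7 CPM with TNP-KLH and 1.09, 59.6 and 26.3 with TNP-LPS, and the DDIT4-like gene (GSONMG00050596001) had 146, 148 and 76.8 CPM and 279.7, 286 and 202 CPM. The paired log2 fold changes were −1.42 ± 0.25 (adjusted p = 0.00109) and 1.13 ± 0.27 (adjusted p = 0.00951), and neither was called without pairing (adjusted p of 0.740 and 0.385). The call of the DDIT4-like gene was lost without TNP-KLH library 1 (adjusted p = 0.0898), TNP-LPS library 3 (0.138) or number 3 (0.0558).

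The calls depended on the libraries to a different degree in the 2 fits. Without pairing, leaving out any TNP-KLH library, TNP-LPS library 1 or TNP-LPS library 2 left 0 higher and at most 4 lower genes, and every unpaired call above was lost in at least 1 of these cases. Without control library 1 there were 169 higher and 126 lower genes, without control library 3 there were 309 and 173, and without TNP-LPS library 3 there were 258 and 129. With pairing, leaving out a single library left 1159 to 3271 higher and 988 to 3222 lower genes, and leaving out all libraries of a number left 1143 to 3453 higher and 1069 to 2356 lower. Of the paired calls, 872 of 2692 higher and 663 of 1883 lower genes were called in all 12 of these fits. Among the unpaired calls, 582 of 673 higher and 214 of 236 lower genes were called in all 12 paired fits. The stable set held 85 genes of ribosome biogenesis, all higher, 8 Toll-like receptors and 14 genes of B cell receptor signalling, all lower.

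**Figure D5:**
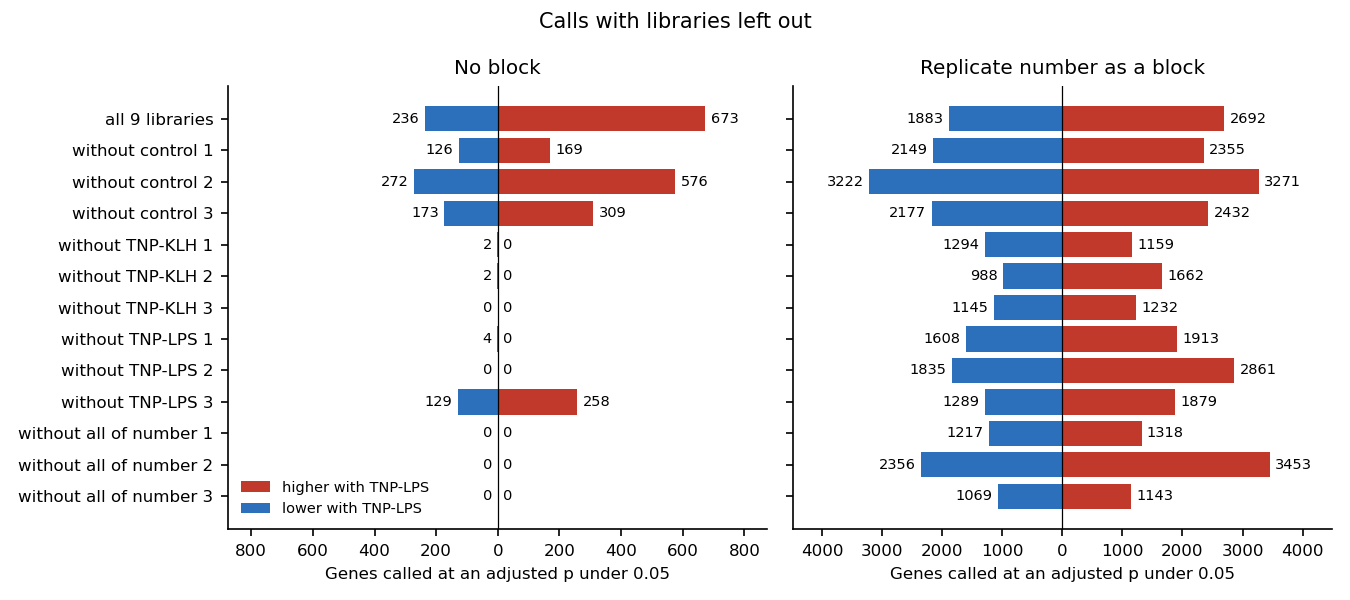
Bars count the genes called higher (to the right) and lower (to the left) with TNP-LPS, with all 9 libraries and with 1 library or all libraries of 1 number left out, without pairing (left) and with the replicate number as a block (right). The left panel falls to 0 higher genes when any TNP-KLH library, TNP-LPS library 1 or 2, or any number is left out, whereas the right panel keeps at least 988 genes in each direction.

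Markers of other cells, which the sort should have removed, were compared in the same way. The 42 erythrocyte markers had 0 calls without pairing and 3 lower in the paired fit (7.14%, against 5.94% of all genes). Their median log2 fold change was −1.88 without pairing, −0.83 with it and 0.06 without the libraries numbered 2. They summed to 591 to 3380 CPM with TNP-KLH and 621 to 951 CPM with TNP-LPS. The 28 T cell and NK cell markers, with 38.8 to 181 CPM in all with TNP-KLH and 36.7 to 123 with TNP-LPS, had 0 calls without pairing. In the paired fit 1 was higher (3.57%, against 8.49% of all genes) and 2 lower (7.14%, against 5.94%). The 21 thrombocyte markers, with 99.1 to 194 CPM in all with TNP-KLH and 84.8 to 105 with TNP-LPS, had 0 calls without pairing. In the paired fit 5 were lower (23.8%, against 5.94% of all genes) and 0 higher, and their median log2 fold change was −1.16 without pairing. Of the 42 monocyte and macrophage markers, 2 were higher and 1 lower without pairing. With pairing 2 were higher (4.76%, against 8.49% of all genes) and 3 lower (7.14%, against 5.94%). The list summed to 694 to 825 CPM with TNP-KLH and 364 to 881 with TNP-LPS. Its median log2 fold change was −0.44 without pairing, and only 10 of the 42 genes were above 0. The 2 genes called higher were copies of allograft inflammatory factor 1. GSONMG00040704001 had 4.91, 9.28 and 8.39 CPM with TNP-KLH and 24.8, 33.1 and 22.8 with TNP-LPS (log2 fold change 1.83 ± 0.39, adjusted p = 0.0393). GSONMG00049081001 changed by 1.75 ± 0.32 (adjusted p = 0.0284). The genes called lower are not named here. The 8 neutrophil markers had 0 calls without pairing, and 1 was lower (12.5%, against 5.94% of all genes) and 0 higher in the paired fit. Their median log2 fold change was −0.62 without pairing, with 1 gene above 0. They summed to 191 to 225 CPM with TNP-KLH, 97.3 to 151 with TNP-LPS and 86.7 to 189 in control cells, so the antigen groups did not overlap. The 37 B cell markers summed to 3100 to 3320 CPM with TNP-KLH, 2240 to 2510 with TNP-LPS and 3880 to 4560 in control cells. Of these markers 2 were lower and 0 higher without pairing. In the paired fit 10 were lower (27%, against 5.94% of all genes) and 0 higher. The part of other cells, or of fewer B cell transcripts per library, in the differences above was not tested.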

How the data were processed

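RNA-seq of sorted IgM+ B cells was taken from 9 libraries in 3 groups of 3, assigned by the names and numbers in the sample labels. The counts per gene were made and deposited by the authors, who used a stranded total RNA kit, mapped single reads with TopHat to the Genoscope trout genome and counted with SAMtools and HTSeq. For these tools no version, and for the counting no strand setting, was found (not given in the sources used here), so reads of overlapping antisense genes may not have been told apart. The same counts stand in 3 deposited tables, which also hold the authors' group means, fold changes and p-values from DESeq, none of them used. No column of per-sample values was left unused. The dose of antigen reads 5 µg/ml in the paper but 5 mg/ml in the labels.

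Counts were fitted with edgeR 4.0.16 (R 4.3.3, TMM factors, glmQLFit and glmQLFTest) over all 9 libraries with 1 factor of 3 groups, and again with the replicate number as a block. The contrast was TNP-LPS minus TNP-KLH, with Benjamini-Hochberg adjustment over the 31691 genes kept. SE is the log2 fold change divided by the square root of F. Differences within numbers are of log2 CPM with a prior count of 2. TMM factors ran from 0.797 in TNP-LPS library 1 to 1.10 in TNP-KLH library 1. The common biological coefficient of variation was 0.446 without the block and 0.214 with it. Alternatives used DESeq2 1.42.0, other size factors, other filters, the 6 antigen libraries alone and each library or number left out. Figures were drawn with matplotlib 3.10.9 (Python 3.11.15, pandas 2.3.3).

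Whether the replicate numbers pair libraries was checked by correlating the residuals of the libraries about their group means. The 9 pairs with the same number had correlations of 0.227 to 0.646 and the 18 with different numbers −0.499 to 0.0345, so the numbers pair the libraries. This rests on the data, since no source says what the numbers share. Counts of 2 libraries of a group differed by a chi-square of 23.2 to 70.2 per gene, so all were kept as separate samples. No source says that libraries came from separate fish, and p-values therefore measure only the spread among these samples, which may be technical.

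The comparison, the 34 pathway lists and 8 marker lists (words in the deposited protein descriptions) and the naming rule were chosen with earlier results of these data known, and the patterns for the actin and integrin lists were tightened after the descriptions had been read. The rule named up to 10 genes in each direction with the largest unpaired change (described, 20 or more normalized counts on average in the higher group, no overlap, the same direction in all 3 numbers) and up to 8 with the smallest paired p under the same filters. It also named up to 4 called genes per list by smallest unpaired p, IRF8, TNFRSF10C and CXCL11, the 6 called genes with the most reads in each direction, up to 2 copies of each and called markers. It gave 371 genes, of which the text gives a part, and some results are not reported here. Names are the deposited best protein matches. The RefSeq table matched none of the identifiers, so no coordinates or sequences are given.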

Additional observations from a re-analysis of the deposited data

How the results depend on the processing

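Without pairing, the numbers of higher and lower genes were 673 and 236. The replicate block gave 2692 and 1883, and DESeq2 gave 1591 and 730, or 2490 and 1835 with the block. In the 6 antigen libraries alone the counts were 13 and 32 without the block and 3379 and 3255 with it. Leaving out single libraries or numbers gave 0 to 576 higher and 0 to 272 lower genes without the block, and 1143 to 3453 higher and 988 to 3222 lower with it. DESeq2's size factors in edgeR and other filters on low counts kept all 4 counts within 1.5 times. The share of higher genes among the calls was 74.0% without the block, 70.0% with DESeq2's size factors and 58.8% with the block. The median fold change over all genes was −0.034 with TMM and −0.056 with DESeq2's size factors.

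Among the log2 fold changes of the named genes, the direction turned in 2 cases without pairing. With libraries left out, GSONMG00032085001 (DDIT4) ranged from −2.41 to 0.0089, the latter without TNP-KLH library 2, and GSONMG00037155001 (Toll-like receptor 13) from −0.040, without TNP-LPS library 2, to 2.19. The median of the TNF ligands was −0.12 without the libraries numbered 2, and that of the chemokine list 0.00. The cause of these shifts was not tested. Genes with few reads in an antigen group, such as those under 1 CPM with TNP-LPS, have changes whose size is poorly bounded at this depth.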

Other observations

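The genes below lie outside the naming rule and were chosen after their values were seen. Among the 31 pairs of genes of one description that were called in opposite directions in the paired fit was ARHGAP18, an inactivator of RhoA. The gene GSONMG00046323001 had 0.327, 2.18 and 0.872 CPM with TNP-KLH and 3.73, 10.7 and 1.76 with TNP-LPS, and its groups overlapped (paired log2 fold change 2.19 ± 0.58, adjusted p 0.0171 paired and 0.242 unpaired). The gene GSONMG00072215001 had 8.83, 18.02 and 11.6 CPM with TNP-KLH and 4.35, 2.64 and 3.99 with TNP-LPS, with no overlap (log2 fold change −1.81 ± 0.37, adjusted p = 0.0353). In the 12 paired fits with libraries left out, the first was called in 7 and the second in 12.

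Regnase-1 (ZC3H12A), which degrades inflammatory messenger RNAs, was split as well. The gene GSONMG00022510001 had 31.4, 56.97 and 57.5 CPM with TNP-KLH and 46.4, 139 and 154 with TNP-LPS (paired log2 fold change 1.06 ± 0.28, adjusted p 0.0158 paired and 0.463 unpaired). The gene GSONMG00071158001 had 499, 1124 and 849 CPM and 256, 488 and 660.2 CPM (paired log2 fold change −0.83 ± 0.21, adjusted p 0.0113 paired and 0.392 unpaired). Each of these was called in 9 of the 12 paired fits with libraries left out. A further gene of that description, GSONMG00079731001, was also lower in the paired fit (log2 fold change −1.24).

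BTG2 (GSONMG00081756001), an antiproliferative gene, had 301, 556 and 295 CPM with TNP-KLH and 105, 286 and 143 with TNP-LPS, with no overlap (paired log2 fold change −1.18 ± 0.19, adjusted p 5.98e-04 paired and 0.253 unpaired). In the DNA replication list, whose genes were called higher at about the rate of all genes, the DNA primase large subunit (GSONMG00071761001) stood out with 53.2, 94.01 and 24.4 CPM with TNP-KLH and 168, 538 and 66.7 with TNP-LPS (paired log2 fold change 1.87 ± 0.21, adjusted p 8.24e-05 paired and 0.259 unpaired).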
